A study of Mus musculus with 8 samples.

Results

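AP-1 is a transcription factor made of pairs of basic leucine zipper (bZIP) proteins, and 10 genes of its family, Fos, Fosb, Fosl1, Fosl2, Jun, Junb, Jund, Atf3, Batf and Batf2, are described here among the 54532 genes counted in mouse macrophages with and without Gsdmd. Other genes that can be counted with AP-1, such as Batf3, Jdp2 and Atf2, are given with the other bZIP genes. The 10 were picked by symbol, and the group was chosen after the contrast between the genotypes had been seen, since Fos and Junb were known to lie on the opposite side of WT from Jun and Fosl1. The differences between the genotypes are therefore given for these 10 genes as a description, with no test. RNA came from bone marrow-derived macrophages (BMDMs) after 6 days of differentiation, with no further treatment named for these libraries. BMDMs grow out of bone marrow in a dish under macrophage colony-stimulating factor (M-CSF). The paper's methods add a step in medium alone or with the cytokine TSLP for different assays. Whether a step in medium alone came before the RNA used here is not given. The 4 WT libraries came from C57BL/6J mice and the 4 Gsdmd-/- libraries from mice that lack gasdermin D in all cells, the protein that forms pores in the plasma membrane during pyroptosis. The methods describe the mice for BMDM culture as female C57BL/6J aged 6 to 8 weeks, and the strain, age and sex of the Gsdmd-/- mice are not given in the sources used here. The WT mice were bought and the Gsdmd-/- mice were a gift kept in the authors' own facility, so genotype and colony cannot be told apart. Whether the 4 libraries of a genotype were made from different mice is not given in the sources used here, so the spread between libraries may be technical.

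Proteins of the FOS group cannot bind DNA as a pair of their own kind and need a JUN partner, whereas JUN proteins can also pair with each other. The pairs bind the AP-1 site, also called TRE, and with ATF partners the related cAMP response element (CRE). Fos, Fosb, Jun, Junb and Atf3 are immediate-early genes, whose transcription rises shortly after growth factors, stress or microbial products reach the cell, and whose mRNAs are short-lived. In the macrophage lineage FOS and JUN take part in growth under M-CSF and in the formation of osteoclasts, and ATF3 dampens the transcription of cytokine genes.

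The promoters of Fos, Junb and Jun are shown because these are the FOS and JUN genes whose libraries did not overlap between the genotypes, and because immediate-early signals act on such promoters. They cover 250 bases before to 50 bases after the start in RefSeq (build GRCm38.p6), at chr12:85473640-85473939 on the plus strand for Fos, chr8:84978699-84978998 on the minus strand for Junb and chr4:95052173-95052472 on the minus strand for Jun. Capitals mark TGACG, the core of the CRE, in Fos and Junb and the CRE variant TGACATCA in Jun.
Fos: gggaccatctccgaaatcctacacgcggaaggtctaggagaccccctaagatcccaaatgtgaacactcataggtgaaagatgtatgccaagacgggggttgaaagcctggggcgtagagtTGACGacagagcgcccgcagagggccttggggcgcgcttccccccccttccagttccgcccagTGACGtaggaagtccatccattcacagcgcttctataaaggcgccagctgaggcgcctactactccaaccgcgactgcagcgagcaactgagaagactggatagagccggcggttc
Junb: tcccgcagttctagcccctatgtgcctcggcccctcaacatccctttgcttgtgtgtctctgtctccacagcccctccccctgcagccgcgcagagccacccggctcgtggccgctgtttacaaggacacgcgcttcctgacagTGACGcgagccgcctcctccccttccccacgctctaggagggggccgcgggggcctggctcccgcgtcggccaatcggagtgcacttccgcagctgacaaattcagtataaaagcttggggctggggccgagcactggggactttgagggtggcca
Jun: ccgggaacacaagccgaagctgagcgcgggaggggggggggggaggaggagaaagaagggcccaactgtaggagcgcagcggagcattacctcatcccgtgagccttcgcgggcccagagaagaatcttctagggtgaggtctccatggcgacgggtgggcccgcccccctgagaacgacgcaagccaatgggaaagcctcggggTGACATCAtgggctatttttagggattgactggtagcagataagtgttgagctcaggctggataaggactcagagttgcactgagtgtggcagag
The TRE (TGACTCA or TGAGTCA) was in 1709 of 32851 mouse promoters of the same length (5.20%) and in 0 of the 8 promoters found for the family (Fosl1 and Batf2 had no entry). The whole CRE (TGACGTCA) was in 1.79% of all promoters and also in 0 of these 8. The CRE variant (TGACATCA or TGATGTCA) was in 3.62% of all promoters and, in the family, in Jun, 45 bases before the start. The CRE core (TGACG or CGTCA, which the whole CRE contains) was in 20.8% of all promoters and in 5 of the 8 of the family. It lay 129 and 66 bases before the start of Fos, 106 before that of Junb, 60 before that of Fosb, 98 before that of Batf and 7 before that of Atf3. These RefSeq starts can differ from the gene positions given below. The window of Atf3 (191183284 to 191183583) lay inside the gene's span, and that of Jund (70697489 to 70697788) ended before its span. The CArG box, which serum response factor binds, was in 1.63% of all promoters and in 0 of the 8. Sites more than 250 bases before the start were not searched, so a box farther upstream would be missed. The variant and the core were searched after these sequences had been seen. A match is a run of letters and not a measured binding site.

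Total counts were between 14935114 and 16794810 per library, and levels are given as CPM, the count of a gene scaled to a common library size. At this depth a gene with no reads could have up to 3 counts, or 0.177 to 0.199 CPM, a limit that covers counting error only. CPM were scaled between libraries by the TMM factors of edgeR. Gsdmd, the targeted gene, fell from 75.3 ± 14.1 CPM in WT to 16.2 ± 1.56 CPM in Gsdmd-/- (SD, n = 4 each, log2 fold change -2.22, adjusted p = 4.67e-05 in edgeR's quasi-likelihood test), and no library overlapped the other genotype. All 10 macrophage markers were detected. Their summed level, mostly Lyz2, was 16622 to 24648 CPM in WT and 20544 to 24570 CPM in Gsdmd-/-. It was lowest in WT 2 (16622 CPM) and WT 3 (18517 CPM). WT 2 and WT 3 stood apart from the other libraries, at 45.4 and 38.8 on the first principal component (43.6% of the variance) against -25.9 to -7.19 for the other 6. On the second component (17.7%), WT 4 was at -31.4 and the others at -11.5 to 23.7. WT 2 and WT 3 also had the lowest sums of monocyte markers (Ly6c2, Ccr2 and others), at 24.6 and 20.2 CPM. These sums were 150 and 159 CPM in WT 1 and WT 4 and 50.6 to 80.1 CPM in Gsdmd-/-. Results are therefore also given without WT 2 and WT 3. Summed markers of neutrophils were 5.36 to 7.94 CPM in WT and 6.93 to 7.69 CPM in Gsdmd-/-, with Ly6g and Retnlg at 0 in all libraries. Lymphoid markers were 0.306 to 1.16 CPM in WT and 0 to 0.532 CPM in Gsdmd-/-, with Cd3d and Ncr1 at 0. Stromal markers were 4.82 to 8.64 CPM in WT and 4.50 to 6.66 CPM in Gsdmd-/-, with Lum at 0. Mast and basophil markers were 80.6, 16.4, 16.5 and 68.4 CPM in WT 1 to WT 4 and 53.5 to 75.1 CPM in Gsdmd-/-. Erythroid and megakaryocyte markers were 10.4 to 33.7 CPM in WT and 16 to 20.5 CPM in Gsdmd-/-, and endothelial markers 142 to 267 CPM and 133 to 212 CPM. Dendritic cell markers, mostly Itgax, were 2246 to 2390 CPM in WT and 1688 to 2108 CPM in Gsdmd-/-, with Siglech at 0, and so did not overlap between the genotypes. The part of this difference in the levels of AP-1 genes was not tested.

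Fos and Junb were higher and Jun and Atf3 lower in every Gsdmd-/- library than in every WT library, and the other 6 members overlapped between the genotypes. Among the 12911 genes that passed the filter on low counts, 3.48% were higher and 4.12% were lower in Gsdmd-/- without overlap. The filter left 9 of the 10 members and removed Fosb. At the cutoff the authors used (an unadjusted p under 0.05 with a log2 fold change of 0.5 or more in size), 1.54% of genes tested were higher and included Fos and Junb, and 3.28% were lower and included Jun, Atf3 and Fosl1. At an adjusted p under 0.05 in edgeR's quasi-likelihood test, 0.349% of genes were called, 1 of them a member. At an unadjusted p under 0.05 the share of all genes was 12%, and at an adjusted p under 0.05 it was 2.26% in DESeq2 (4 members), 1.91% in the exact test of edgeR (4 members) and 0.333% in limma voom (1 member), against which the counts in the gene lists further on are to be read. Nothing is read from these counts of members, since the same contrast chose them. In bulk RNA, fewer cells that express a gene and less of its RNA per cell cannot be told apart.

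**Figure D1:**
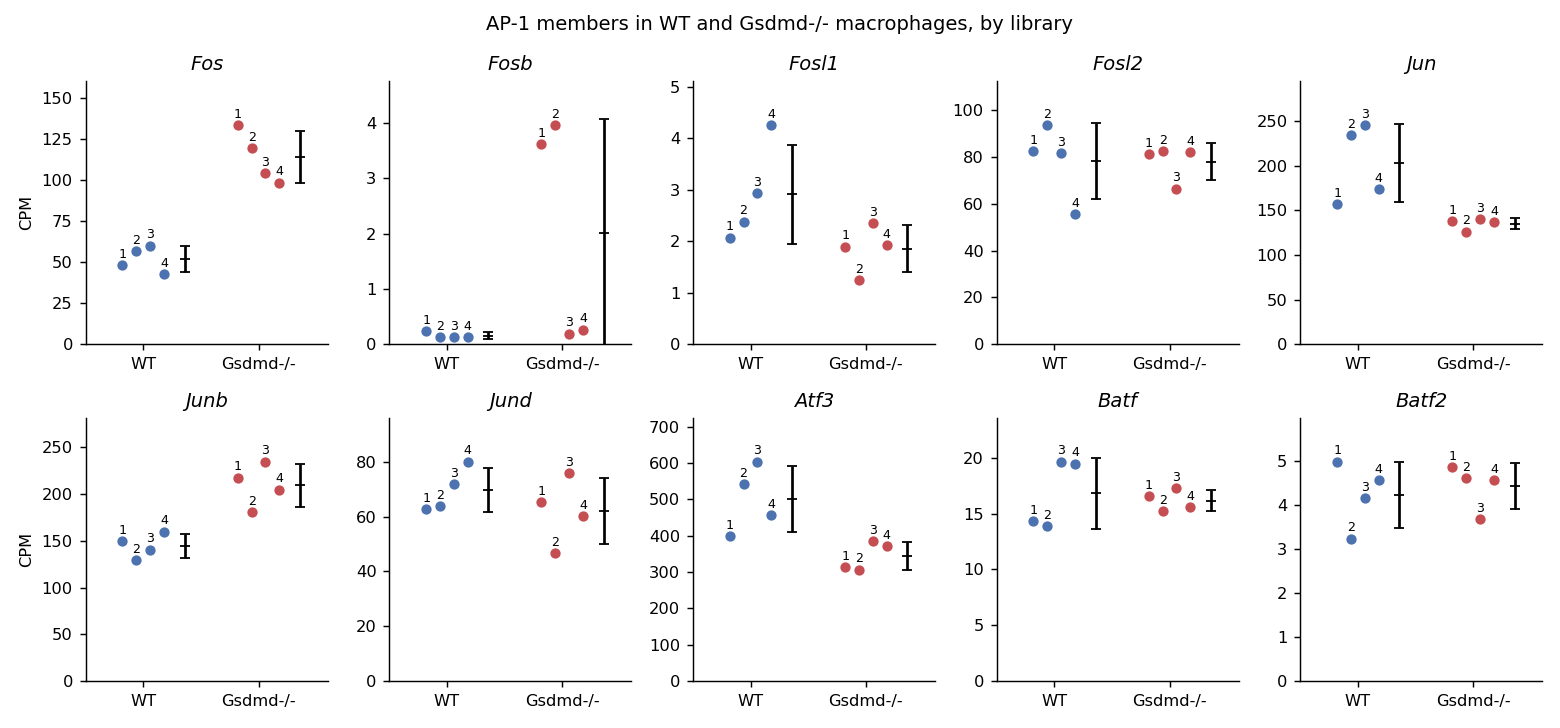
CPM (linear axis from 0, a scale of its own for each gene) of the 10 AP-1 genes in the 4 WT (blue) and 4 Gsdmd-/- (red) libraries. Numbers name the library, and the bars give mean ± SD, cut off at 0 for Fosb. The Gsdmd-/- points lie above all WT points for Fos and Junb and below them for Jun and Atf3, and Fosb was above 1 CPM in Gsdmd-/- 1 and 2 alone.

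Fos (ENSMUSG00000021250, chromosome 12, 85473890 to 85477273, plus strand) encodes the founding partner of JUN in AP-1. Its level was 48.3, 56.9, 60.2 and 42.8 CPM in WT 1 to WT 4 and 134, 119, 105 and 98.5 CPM in Gsdmd-/- 1 to Gsdmd-/- 4. The lowest Gsdmd-/- library was thus above the highest WT library, and Gsdmd-/- 1 and 2 were above Gsdmd-/- 3 and 4. The means were 52.0 ± 7.92 and 114 ± 15.8 CPM (SD, n = 4), a log2 fold change of 1.13 (standard error 0.133). The log2 fold change was 1.32 without WT 2 and 3 and 0.97 without Gsdmd-/- 1 and 2.

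Fosb (chromosome 7, 19302696 to 19310051, minus strand) encodes a FOS protein that is known for a long-lived truncated form. It had 4, 2, 2 and 2 reads in WT 1 to WT 4 and 61, 67, 3 and 4 reads in Gsdmd-/- 1 to Gsdmd-/- 4. Gsdmd-/- 1 and 2 were therefore at 3.61 and 3.96 CPM, and Gsdmd-/- 3, at 0.190 CPM, lay within the range of WT, with Gsdmd-/- 4, at 0.265 CPM, just above the 0.243 CPM of WT 1. The same pair of libraries was highest for Fos in Gsdmd-/- and also for Egr1, described with the other immediate-early genes.

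Fosl1 (FRA-1, chromosome 19, 5447547 to 5455946, plus strand) lacks the transactivation domain of FOS and is itself a target of AP-1. It was read between 21 and 70 times per library and had 2.07, 2.38, 2.93 and 4.26 CPM in WT 1 to WT 4 and 1.90, 1.24, 2.35 and 1.92 CPM in Gsdmd-/- 1 to 4. The genotypes overlapped, because Gsdmd-/- 3 was above WT 1. The means were 2.91 ± 0.967 and 1.85 ± 0.456 CPM (log2 fold change -0.65, standard error 0.287), and the log2 fold change became -0.41 without WT 4. Without Gsdmd-/- 1 and 2 it was -0.44. Without WT 1 or without Gsdmd-/- 3 the libraries of the genotypes no longer overlapped. Fosl2 (FRA-2, chromosome 5, 32135801 to 32157842, plus strand), the other FOS protein that lacks this domain, had the same mean in both, 78.3 ± 16.2 CPM in WT and 78.1 ± 7.75 CPM in Gsdmd-/-.

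Jun (ENSMUSG00000052684, chromosome 4, 95049034 to 95052222, minus strand), the main transactivating JUN protein, was at 157, 235, 246 and 174 CPM in WT 1 to WT 4 and at 138, 126, 140 and 137 CPM in Gsdmd-/- 1 to 4. The Gsdmd-/- libraries lay close together, and the WT libraries fell into a higher pair, WT 2 and WT 3, and a lower pair that was still above all of Gsdmd-/-. The means were 203 ± 43.9 and 135 ± 6.17 CPM (log2 fold change -0.58, standard error 0.140). The log2 fold change was -0.29 without WT 2 and 3, the libraries that stood apart and had the fewest reads on monocyte markers, and -0.55 without Gsdmd-/- 1 and 2. The part of monocyte content in the level of Jun was not tested.

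Junb (ENSMUSG00000052837, chromosome 8, 84974484 to 84978718, minus strand), a weaker activator that can hold back JUN, was at 149, 129, 141 and 160 CPM in WT 1 to 4 and 218, 181, 235 and 205 CPM in Gsdmd-/- 1 to 4. All Gsdmd-/- libraries were above all WT libraries, and WT 2 and 3 were here the lowest and not the highest of WT. The means were 145 ± 13 and 209 ± 22.8 CPM (log2 fold change 0.53, standard error 0.103), and the log2 fold change was 0.44 without WT 2 and 3. Jund (chromosome 8, 70698949 to 70700616, plus strand), the JUN protein that most cells make at a steady level, was at 62.9 to 80.2 CPM in WT and 46.8 to 75.9 CPM in Gsdmd-/-, and the genotypes overlapped (log2 fold change -0.17, standard error 0.143). Several members overlap a gene on the other strand in the annotation, and the sources used here do not state whether reads were counted by strand. The spans shared were 2767 bases for Fosl1 and Ccdc85b, 689 for Jun and the antisense gene Junos, 566 for Batf2 and Arl2 and 351 for Junb and Prdx2. Ccdc85b (14.2 ± 2.67 CPM in WT, 15.6 ± 3.05 CPM in Gsdmd-/-) and Arl2 (27.6 ± 4.81 and 29.3 ± 2.42 CPM) were above Fosl1 and Batf2 in level, and the values of overlapping members are uncertain to that extent. Prdx2 had 202 ± 27.3 CPM in WT, above the mean of Junb there, and 196 ± 30.1 CPM in Gsdmd-/-. The same uncertainty therefore holds for Junb. Junos had 7.87 ± 0.898 and 6.51 ± 0.824 CPM.

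Atf3 (chromosome 1, 191170296 to 191218039, minus strand), a stress-induced gene whose protein pairs with JUN or with itself, was the most abundant member per length. It had 400, 542, 604 and 456 CPM in WT 1 to 4 and 314, 306, 385 and 371 CPM in Gsdmd-/- 1 to 4. As with Jun, WT 2 and WT 3 were highest, and WT 1, the lowest of WT, was still above Gsdmd-/- 3, the highest of Gsdmd-/-. The means were 501 ± 90.4 and 344 ± 39.6 CPM (log2 fold change -0.54, standard error 0.137). The log2 fold change was -0.32 without WT 2 and 3, the libraries with the lowest monocyte markers, whose part was not tested, and -0.40 without Gsdmd-/- 1 and 2.

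Batf (chromosome 12, 85686669 to 85709087, plus strand) and Batf2 (chromosome 19, 6140983 to 6172476, plus strand) encode small bZIP proteins that pair with JUN proteins and bind DNA together with IRF factors. Batf was at 13.9 to 19.7 CPM in WT and 15.2 to 17.3 CPM in Gsdmd-/-. Batf2 was at 3.24 to 4.99 CPM in WT and 3.68 to 4.86 CPM in Gsdmd-/-. For both, the Gsdmd-/- libraries lay inside the range of WT, with log2 fold changes of -0.06 (standard error 0.139) and 0.07 (standard error 0.182).

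**Figure D2:**
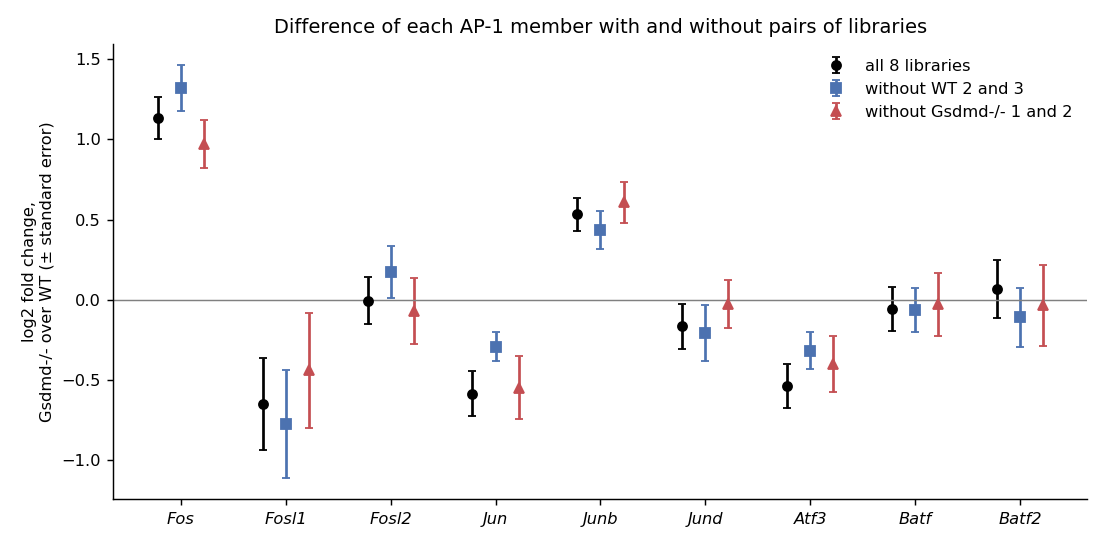
Log2 fold change of Gsdmd-/- over WT (linear axis, bars ± standard error of edgeR's fit) for the 9 members that passed the filter, with all 8 libraries (black circles), without WT 2 and 3 (blue squares) and without Gsdmd-/- 1 and 2 (red triangles). Fos and Junb stay above 0 and Jun and Atf3 below 0 in the 3 fits, and Jun moves from -0.58 to -0.29 when WT 2 and 3 are left out.

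Levels of different members were compared as CPM per kb of exon, with the 10 members of a library set to 100%. Atf3 was 51.8% of the family in WT, followed by Junb (14.3%), Jun (14.2%), Jund (9.45%) and Fos (4.97%). Junb and Jun did not differ in WT beyond their spread, since Junb was the higher of the pair in WT 1 and 4 and Jun in WT 2 and 3. In Gsdmd-/- the order was Atf3 (39.8%), Junb (22.6%), Fos (12.2%), Jun (10.6%) and Jund (9.21%). Of these, Fos, Jun and Jund were neighbours whose ranges overlapped (10.2% to 14.1%, 10.1% to 11.0% and 7.76% to 10.4%). The FOS group as a whole was 7.12% ± 0.785 in WT and 14.5% ± 2.49 in Gsdmd-/- (SD, n = 4), the JUN group 38.0% ± 2.62 and 42.4% ± 1.73, and the group of Atf3, Batf and Batf2 54.9% ± 2.61 and 43.1% ± 2.62. The make-up of the family thus held more Fos and Junb and less Atf3 and Jun in Gsdmd-/-. The ratio of Fos to Jun per length was 0.353 ± 0.0424 in WT and 1.15 ± 0.175 in Gsdmd-/-, and that of Junb to Jun 1.04 ± 0.300 and 2.14 ± 0.146. Both ratios did not overlap between the genotypes, as Fos to Jun ranged from 0.328 to 0.416 in WT and from 0.977 to 1.31 in Gsdmd-/-, and Junb to Jun from 0.763 to 1.32 and from 1.98 to 2.32. The sum over the 10 members overlapped, at 446 ± 56.7 CPM per kb in WT and 402 ± 30.7 CPM per kb in Gsdmd-/-. These ratios rest on the values that chose the members and carry no test.

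**Figure D3:**
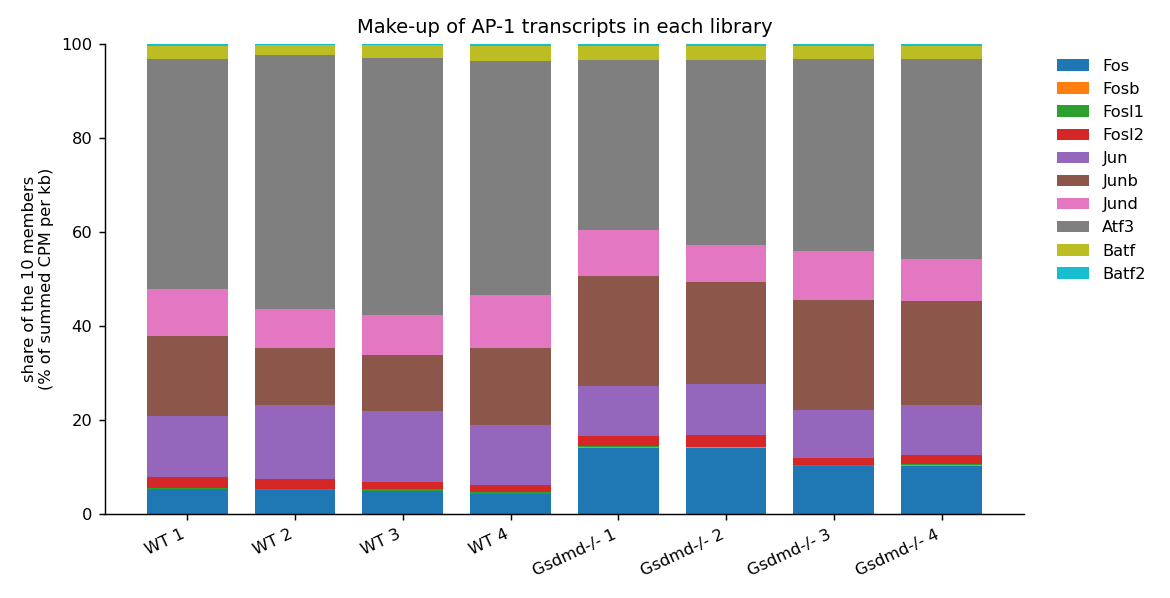
Share of each AP-1 gene in the summed CPM per kb of exon of the 10 members (%, stacked to 100) in each of the 8 libraries. Fos (lowest block) takes 4.28% to 5.40% in WT and 10.2% to 14.1% in Gsdmd-/-, and Atf3, the largest block, 48.9% to 54.7% and 36.2% to 42.6%.

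Of 28 other genes listed as immediate-early, 7 were higher in Gsdmd-/- at an adjusted p under 0.05 and 0 lower. The test was edgeR's quasi-likelihood test, two-sided and adjusted over all genes tested. This list and those below were drawn up with earlier results of these data known. Their counts are therefore a description, and whether the genes share a signal with Fos and Junb was not tested. At the authors' cutoff 8 of 28 were higher and 0 lower, beside 1.54% and 3.28% of all genes tested, and the median log2 fold change of the list was 0.21 beside -0.01 over all genes. Of the 28, 19 had a log2 fold change above 0 and 9 below. Dusp1, which encodes a phosphatase that switches off MAP kinases, was at 60.4, 45.7, 52.3 and 59.6 CPM in WT 1 to 4 and 145, 126, 116 and 110 CPM in Gsdmd-/- 1 to 4 (log2 fold change 1.19, standard error 0.119, adjusted p = 0.00178). Zfp36, which encodes tristetraprolin, a protein that destabilizes cytokine mRNAs and early mRNAs such as that of Fos, was at 109, 95.9, 90.7 and 102 CPM in WT and 202, 183, 207 and 186 CPM in Gsdmd-/- (log2 fold change 0.97, standard error 0.0854, adjusted p = 0.00082). Neither gene overlapped between the genotypes, and both kept an adjusted p under 0.05 when any 1 library was left out, with a highest value of 0.0132 for Dusp1 and 0.00752 for Zfp36. Egr1, a zinc finger transcription factor induced together with Fos, was at 9.01, 2.44, 2.38 and 5.36 CPM in WT and 75.5, 77.0, 38.6 and 40.5 CPM in Gsdmd-/- (log2 fold change 3.59, standard error 0.424, adjusted p = 0.0059). Its WT level was lowest in WT 2 and 3, and in Gsdmd-/- it was highest in libraries 1 and 2, as with Fos and Fosb.

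Ier2 rose from 17.9 ± 3.63 to 41.0 ± 5.32 CPM (log2 fold change 1.19, adjusted p = 0.0146), and its adjusted p was 0.0597 without WT 3, 0.0822 without Gsdmd-/- 1 and 0.0676 without Gsdmd-/- 3. Klf2, which holds macrophage activation in check, rose from 8.31 ± 1.35 to 15.6 ± 1.26 CPM (0.91, adjusted p = 0.0302) and remained under 0.05 with WT 1 or WT 4 left out but not with any of the other 6 left out (0.0561 to 0.153). Myc rose from 36.5 ± 2.27 to 52.0 ± 2.85 CPM (0.51, adjusted p = 0.0361), and leaving out any library but WT 4 gave 0.0727 to 0.164. Sgk1, a kinase gene induced by serum and glucocorticoids, rose from 330 ± 4.59 to 444 ± 23.0 CPM (0.43, adjusted p = 0.0468), and leaving out any 1 library gave 0.0506 to 0.235. None of the 7 genes overlapped between the genotypes. With 1 library left out, between 3 (without WT 3, Gsdmd-/- 1 or Gsdmd-/- 3) and 9 (without WT 4) of all listed genes passed. Without Gsdmd-/- 1 and 2, which held the highest Fos, Fosb and Egr1, the 7 log2 fold changes stayed above 0 (3.04 for Egr1, 1.06 for Dusp1 and 0.99 for Zfp36), but 0 of the 7 passed in edgeR with the 6 libraries left (all 7 had an unadjusted p under 0.05), with adjusted p between 0.0621 for Zfp36 and 0.809 for Sgk1. Without WT 2 and 3, 6 of the 7 passed and Sgk1 had an adjusted p of 0.0652.

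The rest of the list did not move as a block. Ier3 averaged 27.6 ± 9.25 CPM in WT and 51.3 ± 4.63 CPM in Gsdmd-/- (0.90, adjusted p = 0.115) and Btg2 at 21.5 ± 2.50 and 30.5 ± 1.76 CPM (0.51, adjusted p = 0.0889). Egr2, a relative of Egr1, was at 245 ± 22.5 and 255 ± 3.23 CPM (0.06, adjusted p = 0.817). Nr4a1, an orphan nuclear receptor gene, was at 0.671 ± 0.141 and 0.905 ± 0.209 CPM (0.43, adjusted p = 0.615), and Gadd45g at 58.6 ± 6.97 and 44.2 ± 5.20 CPM (-0.41, adjusted p = 0.209). These last 5 genes were chosen after their values were seen. Of 8 heat shock genes, 0 had even an unadjusted p under 0.05 in edgeR's test and 0 an adjusted one in the other tools (median log2 fold change -0.03).

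**Figure D4:**
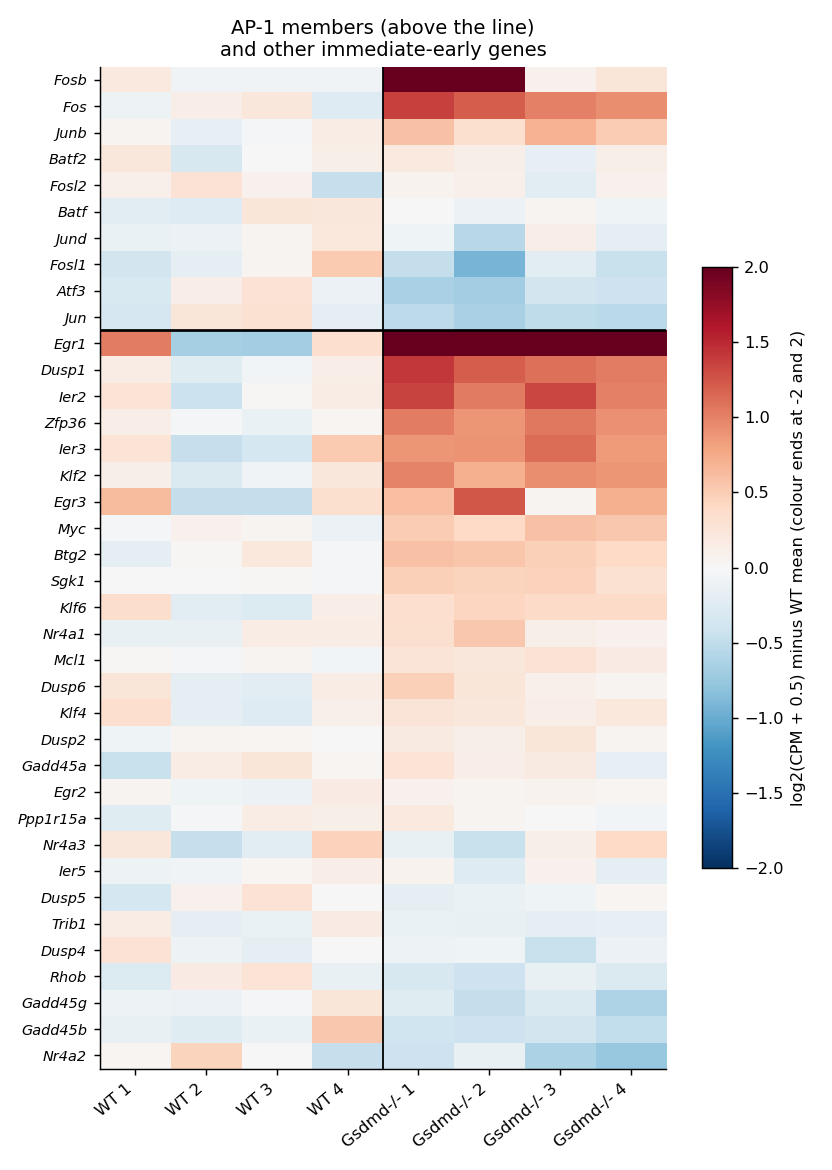
Log2(CPM + 0.5) minus the mean of the 4 WT libraries for the 10 AP-1 members (above the line) and the 28 other immediate-early genes, each set in order of log2 difference, in each library (columns). The colour scale ends at -2 and 2. Red blocks for Fos, Junb, Egr1, Dusp1, Ier2 and Zfp36 fill all 4 Gsdmd-/- columns, that of Fosb only the first pair of them, and Jun and Atf3 are blue in all 4.

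Genes upstream of AP-1 were MAP kinases, their activators and the factors and ligases that act on FOS and JUN. Of 42 tested, 1 was higher (Map2k6, 0.488 and 0.952 CPM) and 1 lower at the authors' cutoff, and the median log2 fold change was 0.04. In edgeR's quasi-likelihood test 6 had an unadjusted p under 0.05 (beside 12% of all genes) and 0 an adjusted one, with 1 passing in DESeq2 and 0 in limma voom and the exact test of edgeR. The lower gene was Rps6ka5, which encodes MSK1, a kinase that phosphorylates histone H3 and CREB at immediate-early genes, with 3.26 ± 0.522 CPM in WT and 2.01 ± 0.274 CPM in Gsdmd-/- (log2 fold change -0.69, adjusted p = 0.222). Of 14 partners that bind composite sites with AP-1, 0 were higher and 1 lower at the cutoff (median -0.07), 3 had an unadjusted p under 0.05 and 0 an adjusted one, by any of these 4 tools. That gene was Nfatc2, with 29.7 ± 7.31 CPM in WT and 20.6 ± 2.59 CPM in Gsdmd-/- (-0.52, adjusted p = 0.265). Its log2 fold change was -0.35 without WT 1, -0.47 without Gsdmd-/- 1 and -0.48 without Gsdmd-/- 3, under the size of the cutoff.

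Of 31 other bZIP genes tested, 1 was higher and 2 lower at the cutoff (median log2 fold change -0.05), 11 had an unadjusted p under 0.05 (beside 12% of all genes) and 0 an adjusted one, against 1 in DESeq2 and 1 in the exact test of edgeR. Dbp, a clock-controlled bZIP gene, averaged 1.74 ± 0.293 CPM in WT and 3.50 ± 0.451 CPM in Gsdmd-/- without overlap (1.01, adjusted p = 0.0861). Batf3, which is needed for cross-presenting dendritic cells, is also in the list of dendritic cell markers and pairs with JUN, was at 16.8 ± 3.90 and 10.2 ± 2.59 CPM (-0.72, adjusted p = 0.232). Creb5 was at 91.0 ± 33.6 and 59.3 ± 7.07 CPM (-0.62, adjusted p = 0.326), with WT 2 and 3 inside the range of Gsdmd-/- or next to it. Without WT 2 and 3 it passed, at -1.0 on the log2 scale (adjusted p = 0.00858), and without WT 1 it was -0.39.

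Of 52 genes listed as targets of AP-1, 39 were tested, of which 5 were higher and 3 lower at the cutoff. In edgeR's quasi-likelihood test 12 had an unadjusted p under 0.05 (beside 12% of all genes) and 0 an adjusted one, against 4 in DESeq2, 4 in the exact test of edgeR and 0 in limma voom. Their median log2 fold change was -0.07. The higher ones were Mmp9, at under 1 CPM in WT, and others that include Vegfa, the angiogenic growth factor (6.00 ± 1.81 and 12.5 ± 3.33 CPM, log2 fold change 1.05, adjusted p = 0.132), Itgb3 (107 ± 31.5 and 180 ± 20.5 CPM, 0.75, adjusted p = 0.174) and Ctsk, the collagen-degrading protease of osteoclasts (247 ± 39.6 and 387 ± 63.8 CPM, 0.65, adjusted p = 0.113). The lower ones were Acp5, the tartrate-resistant acid phosphatase of osteoclasts (-0.95, adjusted p = 0.401), Dcstamp, a fusion protein gene (159 ± 23.8 and 103 ± 34.7 CPM, -0.63, adjusted p = 0.292), and Nqo1, an enzyme of the oxidative stress response (73.6 ± 18.2 and 51.5 ± 14.7 CPM, -0.51, adjusted p = 0.401). Without WT 2 and 3, Itgb3 was at 1.13 (adjusted p = 0.0121) and Nqo1 at -0.29, and without Gsdmd-/- 1 and 2 Dcstamp was at -0.27 and Nqo1 at -0.20. Ctsk had an adjusted p of 0.0412 without WT 4. Acp5 was at 137 and 153 CPM in WT 2 and 3, at 35.8 and 42.6 CPM in WT 1 and 4 and at 43.0 to 52.2 CPM in Gsdmd-/-, so its difference lay in the pair of WT libraries that stood apart, and on the log2 scale it was at 0.28 (adjusted p = 0.324) without them and at -0.59 without WT 3 alone.

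The TRE was in 12 of the 47 promoters found for target genes (25.5%, beside 5.20% of all promoters), and 4 of these 12 genes passed the filter. Mmp12, macrophage elastase, averaged 18612 ± 1193 CPM in WT and 20629 ± 1019 CPM in Gsdmd-/- (log2 fold change 0.15, adjusted p = 0.567), and Mmp13, a collagenase, at 658 ± 70.7 and 495 ± 19.0 CPM (-0.41, adjusted p = 0.115). Plaur (-0.10, adjusted p = 0.851) and Itgax (-0.25, adjusted p = 0.337) did not pass either. Over all 428 genes tested whose promoter holds a TRE, members left out, 5 were higher (1.17%) and 17 lower (3.97%) at the cutoff, and the median was -0.01, beside 1.54%, 3.28% and -0.01 over all genes. Of these 428, 64 had an unadjusted p under 0.05 in edgeR's quasi-likelihood test (beside 12% of all genes) and 0 an adjusted one, against 10 in DESeq2, 11 in the exact test of edgeR and 0 in limma voom. Among the 28 other immediate-early genes, some of which have more than 1 promoter in the table, the CRE was found for 3 (Dusp1, Btg2 and Ppp1r15a), the CRE core for 13 and the CArG box for 3 (Egr2, Zfp36 and Dusp5). Sites outside the same window were not searched here either.

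**Figure D5:**
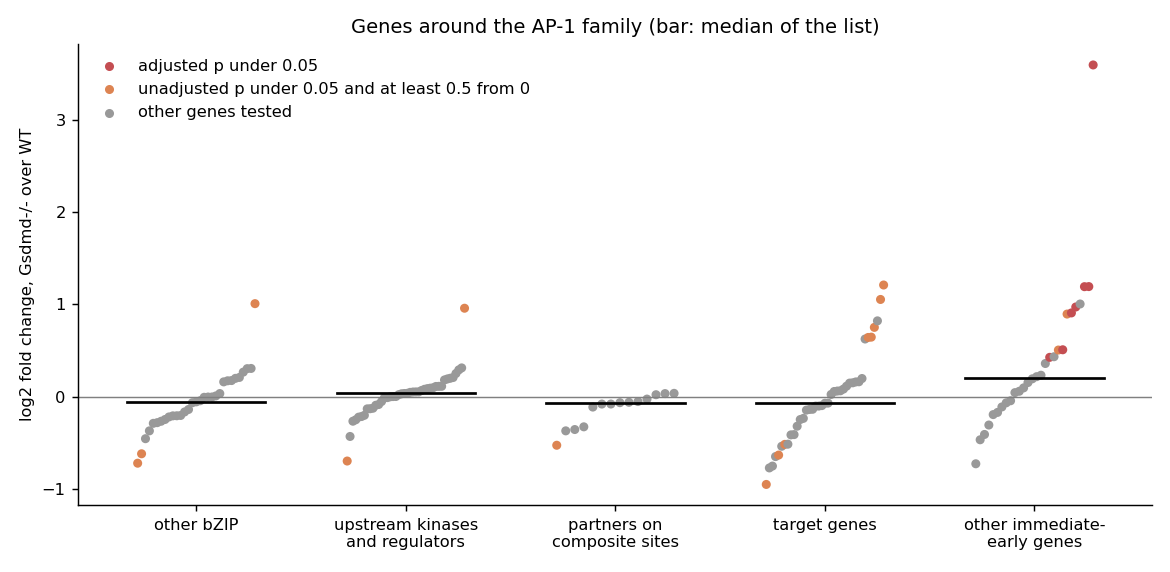
Log2 fold change (linear axis) of each gene tested in the 5 lists around the AP-1 family, members left out, with the list's median as a bar. Red points have an adjusted p under 0.05 and occur only in the list of other immediate-early genes (7 of 28), orange points are at the authors' cutoff alone and grey points are the other genes.

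Genes near the members were looked at because the mouse colonies differ. Within 500 kb, between 4 and 45 genes were tested per member, and 2 of them passed at an adjusted p under 0.05 in edgeR's quasi-likelihood test, both near Junb, where 32 were tested. DESeq2 called 4 near Junb, 3 near Atf3, 3 near Batf2 and 1 each near Fosb, Fosl1 and Jund, so the place of the calls differed with the tool. Ier2, described above, lies 312 kb from Junb and did not pass without WT 3, Gsdmd-/- 1 or Gsdmd-/- 3 (adjusted p 0.0597 to 0.0822). Gm42031, a predicted gene 147 kb away, had 0 reads in all WT libraries and 25.9, 23.5, 22.7 and 18.9 CPM in Gsdmd-/- 1 to 4, at least 124-fold higher than the floor of 3 counts per WT library (adjusted p = 2.40e-05). In edgeR's quasi-likelihood test, 1.54% of all genes were higher and 3.28% lower at the authors' cutoff, and 12% had an unadjusted p under 0.05. The share with an adjusted p under 0.05 was 0.349% there and 2.26% in DESeq2. Near Atf3, 4 of 16 genes were at the cutoff, among them Batf3 at 61.4 kb. Of these 16, 6 had an unadjusted p under 0.05, and 0 passed after adjustment in edgeR's quasi-likelihood test. Also at the cutoff were 4 of 32 near Junb, 2 of 33 near Fosb and 2 of 38 near Batf2. Near Fosl1 and Jund it was 1 of 45 and 1 of 34, and near Fosl2 and Batf 0 of 4 and 0 of 11. Near Fos and near Jun, 2 of 16 and 0 of 7 genes were at the cutoff, 4 and 1 had an unadjusted p under 0.05, and 0 passed after adjustment in edgeR or DESeq2. Within the family, Fos and Batf lie 209 kb apart on chromosome 12 and Fosl1 and Batf2 685 kb apart on chromosome 19.

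Finally, the genes whose pattern was most like a member's were found by the root-mean-square difference of log2 CPM, centred on the mean of the 8 libraries. Nearest to Fos were the histone gene Hist1h2bg (0.130), Zfp469 (0.199) and Dbp (0.239). Junb had closer matches in 2610524H06Rik (0.0761), Qpct (0.0884), which encodes glutaminyl cyclase, and Id1 (0.101), an inhibitor of helix-loop-helix factors. Jun was most like Noct (0.0761), Men1 (0.0778), which encodes menin, a protein known to bind JUND, and Siglecf (0.0856). Fosl1 was matched less closely than Junb and Jun, by Stap2 (0.168), Cela1 (0.188) and Prr15 (0.191). Hist1h2bg was at 3.93 ± 0.781 and 8.04 ± 1.69 CPM (log2 fold change 1.03, adjusted p = 0.0801), Qpct at 124 ± 6.52 and 174 ± 17.1 CPM (0.49, adjusted p = 0.0618) and Men1 at 38.2 ± 5.99 and 26.2 ± 0.597 CPM (-0.54, adjusted p = 0.1). Without WT 2 and 3, Hist1h2bg had an adjusted p of 0.0498 (0.878 without Gsdmd-/- 1 and 2) and Men1 a log2 fold change of -0.34, and without WT 4 Qpct had an adjusted p of 0.0448. These 12 genes were chosen by their likeness to members over the same libraries, so their differences between the genotypes follow that choice.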

How the data were processed

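Reads per gene of 8 BMDM libraries (4 WT, 4 Gsdmd-/-) were deposited by the authors as 1 table of raw counts, not normalized. RNA was taken up in TRIzol and TruSeq libraries were made from total RNA, per the labels. The genome build is mm10 in the submitters' processing notes. The aligner, the counter and the annotation are not given in the sources used here. Of 54532 genes, 54495 were matched by identifier to GENCODE M21 (GRCm38) for positions and exon lengths. Columns of other samples were not present.

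Counts were scaled by TMM, filtered with filterByExpr and compared with edgeR 4.0.16 in R 4.3.3 (quasi-likelihood test, two-sided, genotype as the only term, Benjamini-Hochberg adjustment over 12911 genes). The median log2 fold change was -0.0068. CPM used the TMM factors, and a prior count of 2 was added for log2 CPM. The procedure was tested on simulated data. The members, lists, rule for naming genes and tests were chosen with earlier results of these data known. Named were the members, Gsdmd, listed genes with an adjusted p under 0.05, up to 3 listed genes per direction with the largest change at the authors' cutoff and a mean of at least 1 CPM, neighbours within 500 kb with an adjusted p under 0.05, and the 3 genes nearest in pattern to Fos, Junb, Jun and Fosl1. Other genes named were chosen after their values were seen.

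The lists hold other bZIP genes, upstream regulators, partners on composite sites, targets, other immediate-early genes, heat shock genes and markers of 9 cell types. Ddit3, whose symbol is shared by 2 identifiers, was left out, as were Mrtfa and Mrtfb, which were not matched to an identifier. Promoters and their positions are from RefSeq (GRCm38.p6), and 8 of 10 members had one. Replicate numbers name the libraries and do not pair them, as deviations of same-numbered libraries correlated at 0.0268, 0.182, 0.0412 and -0.201. Alternatives were other scaling factors, the table without a filter, a minimum of 10 counts per library, DESeq2 1.42.0, limma 3.58.1 (voom), the exact test of edgeR, a replicate block, each library left out, WT 2 and 3 left out, a log2 fold change of at least 1, a window of 1000 kb, the length of the longest transcript and a prior count of 0.5. Leaving out Gsdmd-/- 1 and 2, the CRE variant and the CRE core were added after seeing the data.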

Additional observations from a re-analysis of the deposited data

Results flagged for a closer look

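In groups of 4 libraries, 82 combinations of a gene and a genotype were looked at for a library far from the other 3, a rule that chance meets in about 1 in 20 groups, and 4 met it. Fosb was at 0.243 CPM in WT 1 (4 reads against 2 in each of the other WT libraries, a gap of 0.996 of the group's range). Fosl2 was at 66.5 CPM in Gsdmd-/- 3, below 81.1 to 82.6 CPM in the others (0.905 of the range). Zfp469 was at 0.672 CPM in WT 3, above 0.304 to 0.367 CPM in the others (0.830). Stap2 was at 4.93 CPM in WT 4, above 3.23 to 3.30 CPM in the others (0.957).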

How the results depend on the processing

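The sign of the log2 fold change held in all 20 fits for Fos (0.97 to 1.32), Junb (0.44 to 0.61), Jun (-0.69 to -0.29), Atf3 (-0.63 to -0.32), Fosl1 (-0.78 to -0.41) and Jund (-0.28 to -0.03), and changed with the fit for Fosl2, Batf and Batf2. Without WT 2 and 3, Jun was at -0.29 and Atf3 at -0.32. Over the whole table, 18 genes were higher and 27 lower at an adjusted p under 0.05, 199 and 424 at the authors' cutoff. Among the listed genes 7 passed the adjusted test and 15 were higher and 7 lower at the cutoff, and 2 neighbours passed. With no filter these counts were 44 and 65, 421 and 783, 11 listed genes and 4 neighbours. DESeq2 gave 105 and 187, 16 listed genes and 12 neighbours, and the exact test of edgeR 92 and 154, 14 and 8. With at least 10 counts in every library 1 neighbour passed, because Gm42031 was removed. The replicate block gave 9 and 16 and 4 listed genes, losing Klf2 (adjusted p = 0.0578), Myc (0.149) and Sgk1 (0.18), though the numbers pair nothing in the labels. Without WT 2 and 3 the counts were 53 and 108, 405 higher at the cutoff, 11 listed genes at the adjusted p, 13 lower at the cutoff, and 5 neighbours. Without Gsdmd-/- 1 and 2 they were 2 and 3, 128 higher at the cutoff, 0 listed genes at the adjusted p, 2 lower at the cutoff, and 1 neighbour. A cutoff of 1 for the log2 fold change left 59 and 140. Leaving out 1 library gave 8 to 28 higher and 5 to 56 lower at the adjusted p, 155 to 318 and 297 to 704 at the cutoff (highest without WT 4), 3 to 9 listed genes at the adjusted p (3 without WT 3, Gsdmd-/- 1 or Gsdmd-/- 3), 12 to 15 higher and 4 to 11 lower at the cutoff, and 1 to 2 neighbours. The causes were not tested. Depth limits Fosb and Fosl1, which were read at most 70 times in a library.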
